A study of Bos taurus with 129 samples.

Results

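The tumour necrosis factor (TNF) ligand and receptor superfamily was followed in 4 tissues of the bovine mother and conceptus at day 16 of pregnancy. Members were chosen by gene name, with earlier results of these data known. The rule took every gene whose symbol begins with TNFSF or TNFRSF, and TNF, LTA, LTB, FAS, FASLG, CD40, CD40LG, CD27 and CD70. This gave 37 members, 17 ligands and 20 receptors, among 35158 genes of the experiment called E2 here. In the experiment called E1 here it gave 36 of these genes on 37 of 24616 gene rows, because TNFSF13B stood on 2 rows and TNFRSF17 was not analysed there.

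TNF family ligands are made mostly by immune cells, as proteins of the cell surface that can be shed. They bind receptors that carry either a death domain, which can start caspase-driven cell death, or motifs that recruit TRAF adaptors and turn on NF-kappaB. In the uterus and ovary the family is best known for signals between leukocytes, for death of cells through FAS, and for regression of the corpus luteum.

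In the paper, the cows whose conceptuses gave the E2 libraries were lactating multiparous Holsteins, inseminated with semen of 1 sire. The paper gives no such description of the cows of E1 or of the NP cows. Tissues were conceptus, endometrium, corpus luteum (the progesterone-secreting gland left by the ovulated follicle) and PBMC (mononuclear cells of the blood). EM stands for pregnancies undergoing embryo mortality, in which the flushed conceptus was pink, red or opaque or restricted in elongation. N stands for normal pregnancies, with a translucent, elongated conceptus, and NP for cows that were not pregnant. In E2, EM was thus a class set by the look of a conceptus at day 16, and not by the later loss of a pregnancy. The paper gives no such criteria for E1, whose labels use the same class names. E2, with 75 bp single-end reads, held 6 EM and 9 N conceptuses, and 6 EM, 9 N and 7 NP libraries of each of the other tissues. E1, with 100 bp paired-end reads, held 4 EM and 8 N conceptuses, 4 EM, 8 N and 7 NP endometria, and 3 EM, 7 N and 5 NP PBMC libraries. The sources do not say which libraries of different tissues belong to 1 cow, so no samples were paired.

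Libraries held 4648644 to 24482117 counts, apart from 3 of the 4 EM conceptuses of E1, with 3827080 (S2), 224034 (S4) and 106785 (S5). Levels are given as CPM, a gene's count scaled by the total count of its library. In S4 and S5 a gene at 0 could still lie at up to 13.4 and 28.1 CPM, the level of 3 counts, and such floors cover counting error only. Marker genes matched the tissue label in most libraries, but some libraries stood apart. In the EM conceptuses of E2, 7 trophectoderm genes (the outer layer of the conceptus) summed to 36.6 to 5207 CPM in 5 libraries and 21450.1 CPM in S55, against 26079 to 44071 CPM in N. The NP corpus luteum S109 had 315 CPM of luteal steroidogenic genes, against 4941 CPM in the EM corpus luteum S121 and 12230.1 CPM or more in the others. S121 also had 2409 CPM of endometrial epithelium genes, against 541.6 CPM or less in the other corpora lutea. The EM conceptus S61 of E2 had 3527 CPM of luteal genes, against 237 CPM or less in the other conceptuses of E2. In E1 the EM conceptus S3 had 42063 CPM of red cell genes, against 3031 CPM or less in the other conceptuses. The NP endometrium S31 of E1 had 10921 CPM of epithelium genes and 5035 CPM of stromal genes, against at most 2645 CPM and at least 13266 CPM in the other endometria of E1. The NP PBMC library S47 of E1 had 21.4 CPM of T cell genes, against 549 CPM or more in the others.

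Across tissues of normal pregnancies, blood cells had the highest mean CPM of most members, although not all of these were called. In the N libraries of E2 (9 per tissue) 35 members passed the filter on low counts. Of these, 17 were called higher in PBMC than in each of the other 3 tissues, 5 were called highest in endometrium, 2 in corpus luteum and 2 in conceptus. Members were called at 0.05 after Benjamini-Hochberg adjustment over all genes, in the quasi-likelihood test of edgeR. The other 9 members had no single highest tissue. The share of all genes called highest in each tissue is not given, so no excess of members in PBMC is read from these counts. Without the N conceptus S50, a setting chosen after seeing the data, 6 were highest in endometrium and the other counts did not move. Most genes differ between tissues: 85.6% of all genes were called between conceptus and endometrium, 84.9% between conceptus and PBMC, and 81.7% between conceptus and corpus luteum. Of the 35 members, 28 were lower and 4 higher in conceptus than in endometrium. Against PBMC 26 were lower and 6 higher in conceptus, and against corpus luteum 22 were lower and 6 higher. Between endometrium and corpus luteum 11 were higher and 6 lower in endometrium, beside 58.5% of all genes called. How all genes split by direction is not given beside these counts.

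**Figure D1:**
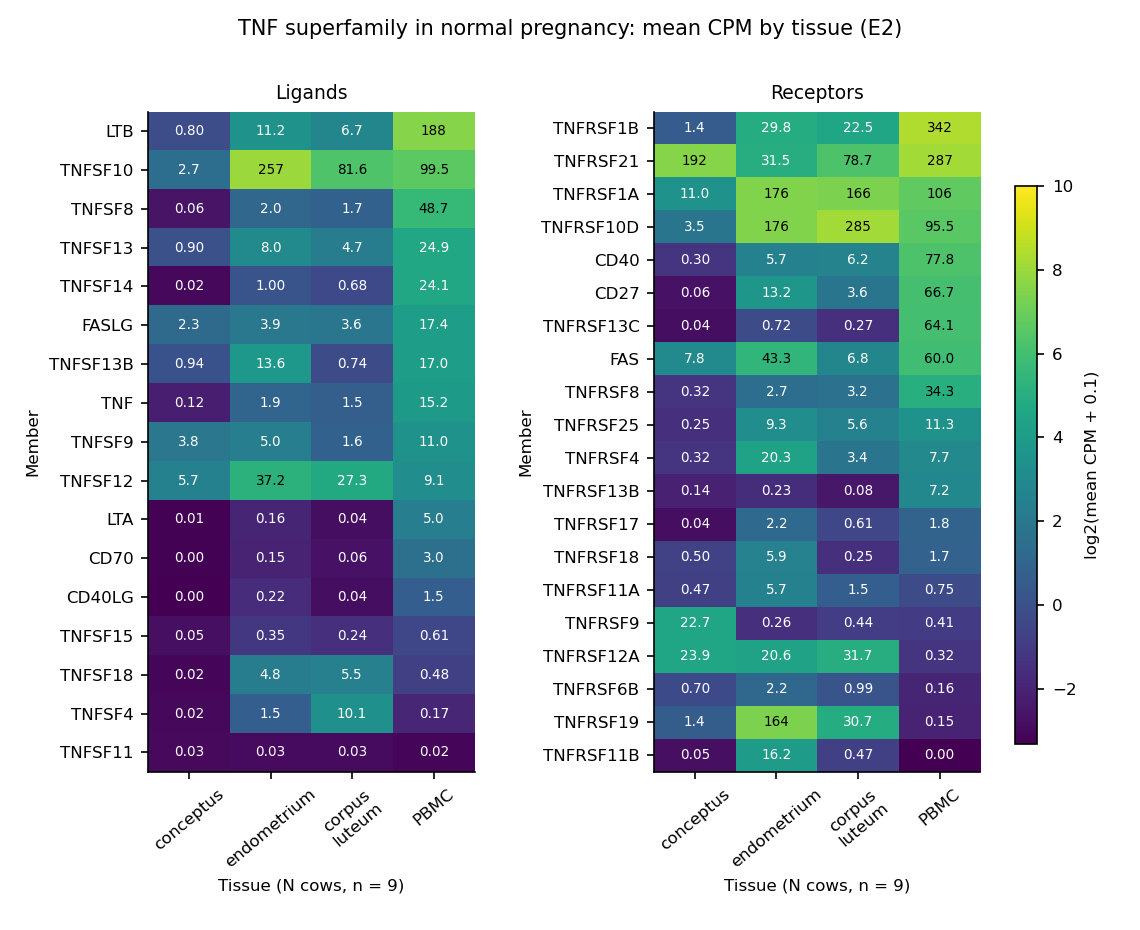
Mean CPM of TNF superfamily members in the N libraries of E2 for 4 tissues (9 libraries each), with each row a member the number in each cell the mean CPM, and the colour log2 of the mean CPM plus 0.1. PBMC has the highest level for most members, and TNFRSF9 stands out in the conceptus column.

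LTB, which pairs with LTA to form the membrane lymphotoxin that organises lymphoid tissue, averaged 188 ± 56.6 CPM in PBMC, 11.2 ± 5.04 CPM in endometrium, 6.74 ± 1.52 CPM in corpus luteum and 0.800 ± 0.374 CPM in conceptus (SD, n = 9 each). The log2 difference of PBMC minus endometrium was 4.19 with a standard error of 0.27 (edgeR adjusted p = 2.09e-16). PBMC was therefore the one tissue with abundant LTB, and endometrium and corpus luteum did not differ beyond their spread (adjusted p = 0.138). TNF, the inflammatory cytokine that gives the family its name, averaged 15.2 ± 3.36 CPM in PBMC, 1.95 ± 1.02 CPM in endometrium, 1.53 ± 0.441 CPM in corpus luteum and 0.121 ± 0.196 CPM in conceptus. TNFRSF1B, the TNF receptor found mainly on immune cells, averaged 342 ± 63.7 CPM in PBMC and 29.8 CPM in endometrium. TNFRSF13C, the receptor for the B cell survival factor BAFF, averaged 64.1 ± 15.1 CPM in PBMC and 0.725 CPM in endometrium, a log2 difference of 6.57 ± 0.49 (SE).

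Against PBMC, 12 of the 35 members were called higher and 18 lower in endometrium (73% of all genes called), and 10 were called higher and 23 lower in corpus luteum (76.1% of all genes called). TNFRSF19, a receptor expressed on epithelial cells, averaged 164 ± 104.4 CPM in endometrium, 30.7 CPM in corpus luteum, 1.43 CPM in conceptus and 0.145 CPM in PBMC. TNFRSF11B, the secreted decoy receptor osteoprotegerin, averaged 16.2 ± 11.1 CPM in endometrium and 0.467 CPM in corpus luteum, and it was at 0 in all 9 N libraries of PBMC. Its ligand TNFSF11 (RANKL) failed the filter in every tissue, with a highest value of 0.522 CPM over all groups and both experiments. TNFRSF10D, named after the human decoy receptor for TRAIL, averaged 285 ± 153 CPM in corpus luteum and 176 CPM in endometrium (log2 difference 1.01 ± 0.29 SE, adjusted p = 0.00321). TNFSF4, the ligand of the T cell receptor OX40, averaged 10.1 ± 2.16 CPM in corpus luteum and 1.47 CPM in endometrium.

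TNFRSF9 had its highest level in the conceptus. TNFRSF9, known as 4-1BB on activated T cells, averaged 22.7 ± 8.05 CPM in N conceptuses, 0.436 CPM in corpus luteum, 0.405 CPM in PBMC and 0.260 CPM in endometrium (SD, n = 9 each). Conceptus exceeded corpus luteum, the next tissue, by 6.37 ± 0.43 (SE) on the log2 scale (edgeR adjusted p = 6.52e-16). TNFRSF21, the death receptor DR6, averaged 287 ± 83.6 CPM in PBMC, 192 ± 35.9 CPM in conceptus, 78.7 ± 10.6 CPM in corpus luteum and 31.5 ± 10.01 CPM in endometrium. Its call as highest in conceptus depended on the scaling of libraries: with TMM factors the fitted difference of PBMC minus conceptus was -0.35 ± 0.16 (adjusted p = 0.0384), and with RLE factors the call was lost. TNFRSF12A, the receptor of TWEAK, was a member that blood nearly lacked, at 31.7 CPM in corpus luteum, 23.9 CPM in conceptus, 20.6 CPM in endometrium and 0.317 CPM in PBMC.

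Levels of different genes can be compared only per length, which the E1 tables give. As mean CPM per kilobase of exon, LTB led in PBMC at 808 in EM, 919 in N and 818 in NP libraries. The NP mean includes S47, the PBMC library with 21.4 CPM of T cell genes, against 549 CPM or more in the others. TNFRSF1A and TNFSF10 led in endometrium: TNFRSF1A had 87.5 in EM, 119.2 in N and 82.5 in NP, and TNFSF10 had 68.9 in EM, 137 in N and 69.97 in NP. In EM conceptuses the leading members per kilobase were LTB (43.2), TNFRSF21 (30.6) and TNFRSF1A (23.6). In N conceptuses they were TNFRSF21 (51.1), TNFRSF12A (11.7), TNFSF12 (10.9) and TNFRSF9 (10.8). By these means the first place in the conceptus went to a lymphoid ligand in EM and to DR6 in N. The EM libraries of E1 did not share 1 order. Per kilobase LTB led TNFRSF21 in S2 and S3, and TNFRSF21 led LTB in S4 and S5. S4 and S5 were shallow, at 224034 and 106785 counts.

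On the UMD3.1 assembly, several members lie side by side. LTB (27529856 to 27531864), TNF (27533911 to 27536674) and LTA (27537907 to 27539470) stand together on chromosome 23, and TNFRSF1A (104402771 to 104415588) and CD27 (104302583 to 104308155) share a stretch of chromosome 5. TNFRSF4 (52484468 to 52487309) and TNFRSF18 (52492065 to 52494746) are neighbours on chromosome 16, and TNFSF12 (27893175 to 27901018) and TNFSF13 (27901945 to 27904808) on chromosome 19.

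The comparison of EM with N conceptuses asks which members differ between conceptuses classed by their look as undergoing embryo mortality and normal ones. In E2, 25 of the 37 members passed the filter and all 25 were called, 23 of them higher and 2 lower in EM. All 9 ligands tested and 14 of 16 receptors tested were higher. In this tissue 67.1% of all 15642 genes tested were called, 35.3% higher and 31.8% lower, so most genes moved. The median log2 fold change was 3.46 over the 25 members and 0.07 over all genes. Members whose level is high only in EM pass the filter through EM, so neither the count nor the median stands for all 37. With RLE factors the median of all genes moved up by 0.10, and 23 members were still called higher and 2 lower.

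**Figure D2:**
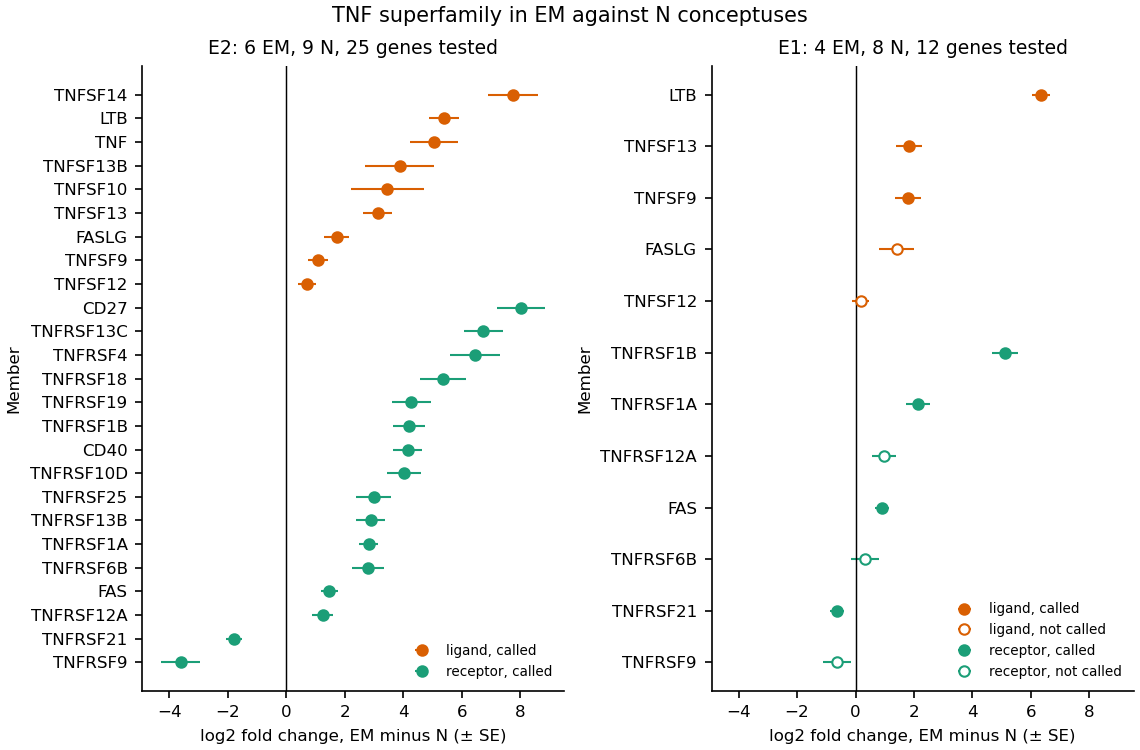
Log2 fold change of EM minus N conceptuses for the members tested in E2, and in E1 where tested, with ligands above receptors, bars of 1 standard error, filled points for called members and open points for members not called. In E2, 23 of 25 members lie above 0, and TNFRSF21 and TNFRSF9 lie below 0 in both experiments. TNFRSF9 was not called in E1.

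TNFSF14, LTB and TNF had the largest log2 fold changes among the ligands. TNFSF14 (LIGHT), a T cell ligand, had 1.73, 4.96 and 19.9 CPM (lowest, median and highest) in EM conceptuses, against 0, 0 and 0.135 CPM in N conceptuses. The groups did not overlap, and 7 of 9 N libraries were at 0. Its log2 fold change was 7.75 ± 0.85 (SE, edgeR adjusted p = 3.62e-06), and 9.08 without N S59. LTB had 8.36, 37.8 and 102.9 CPM in EM conceptuses, against 0.204, 0.956 and 1.21 CPM in N conceptuses. Every EM library lay above every N library, with S58 the highest and S55 the lowest (log2 fold change 5.40 ± 0.51, adjusted p = 1.62e-06). TNF had 1.52, 6.12 and 9.05 CPM in EM conceptuses, against 0, 0.0415 and 0.539 CPM in N conceptuses. The groups were again separate, and 4 of 9 N libraries were at 0 (5.04 ± 0.83, adjusted p = 7.95e-05, and 6.004 without N S59).

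FASLG, TNFSF13, TNFSF13B and TNFSF10 were called higher too. FASLG, the ligand by which killer lymphocytes trigger FAS, had 4.75, 9.21 and 19.7 CPM in EM conceptuses, against 0.601, 2.60 and 3.86 CPM in N conceptuses. The ranges did not overlap (log2 fold change 1.72 ± 0.43, edgeR adjusted p = 0.00227). TNFSF13 (APRIL), a plasma cell survival factor, had 5.30, 8.75 and 17.4 CPM in EM conceptuses, against 0.163, 0.871 and 2.82 CPM in N conceptuses, also without overlap (3.13 ± 0.49, adjusted p = 5.19e-05). TNFSF13B (BAFF), its relative for B cells, had 1.33, 11.8 and 55.7 CPM in EM conceptuses, against 0, 0.0830 and 7.84 CPM in N conceptuses. TNFSF10 (TRAIL), a death ligand that interferon can induce, had 1.23, 35.1 and 65.2 CPM in EM conceptuses, against 0, 0.166 and 22.6 CPM in N conceptuses. Both of these overlapped between groups through 2 libraries: EM S55 was the lowest EM library and N S50 the highest N library for each. Their log2 fold changes were 3.88 ± 1.19 for TNFSF13B (adjusted p = 0.0088) and 3.46 ± 1.26 for TNFSF10 (adjusted p = 0.0233). Both sizes rested on N S50: without it they were 7.48 for TNFSF13B (adjusted p = 1.12e-06) and 7.35 for TNFSF10 (adjusted p = 1.69e-06). Without EM S61 TNFSF13B differed by 2.999 (adjusted p = 0.0364).

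The same 2 libraries stood apart in genes outside the family. The 11 interferon-stimulated genes found summed to 137 CPM in EM S55 and to 1024 to 5421 CPM in the other EM conceptuses, and to 887 CPM in N S50 and 7.14 to 79.4 CPM in the other N conceptuses. All 11 were called higher in EM. Among N conceptuses S50 also had the highest sums of endometrial epithelium (1389 CPM), T cell (8.91 CPM) and natural killer cell genes (2.27 CPM). Its sum of B cell genes (10.6 CPM) lay within the range of the other N conceptuses. The part of any of these genes in the differences of TNFSF10 and TNFSF13B was not tested. The smallest rises among ligands were those of TNFSF9, the ligand of TNFRSF9, at 3.42, 9.94 and 21.02 CPM in EM conceptuses and 2.32, 3.53 and 7.003 CPM in N conceptuses (1.08 ± 0.35, edgeR adjusted p = 0.0118), and TNFSF12 (TWEAK), at 6.66, 13.4 and 16.1 CPM in EM conceptuses and 2.33, 5.11 and 11.03 CPM in N conceptuses (0.72 ± 0.31, adjusted p = 0.0472). Both ranges overlapped. TNFSF12 lost its call without EM S55, EM S61, N S62 or N S63 (adjusted p 0.0672 to 0.0980), and TNFSF9 lost it without EM S61 (adjusted p = 0.0550).

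**Figure D3:**
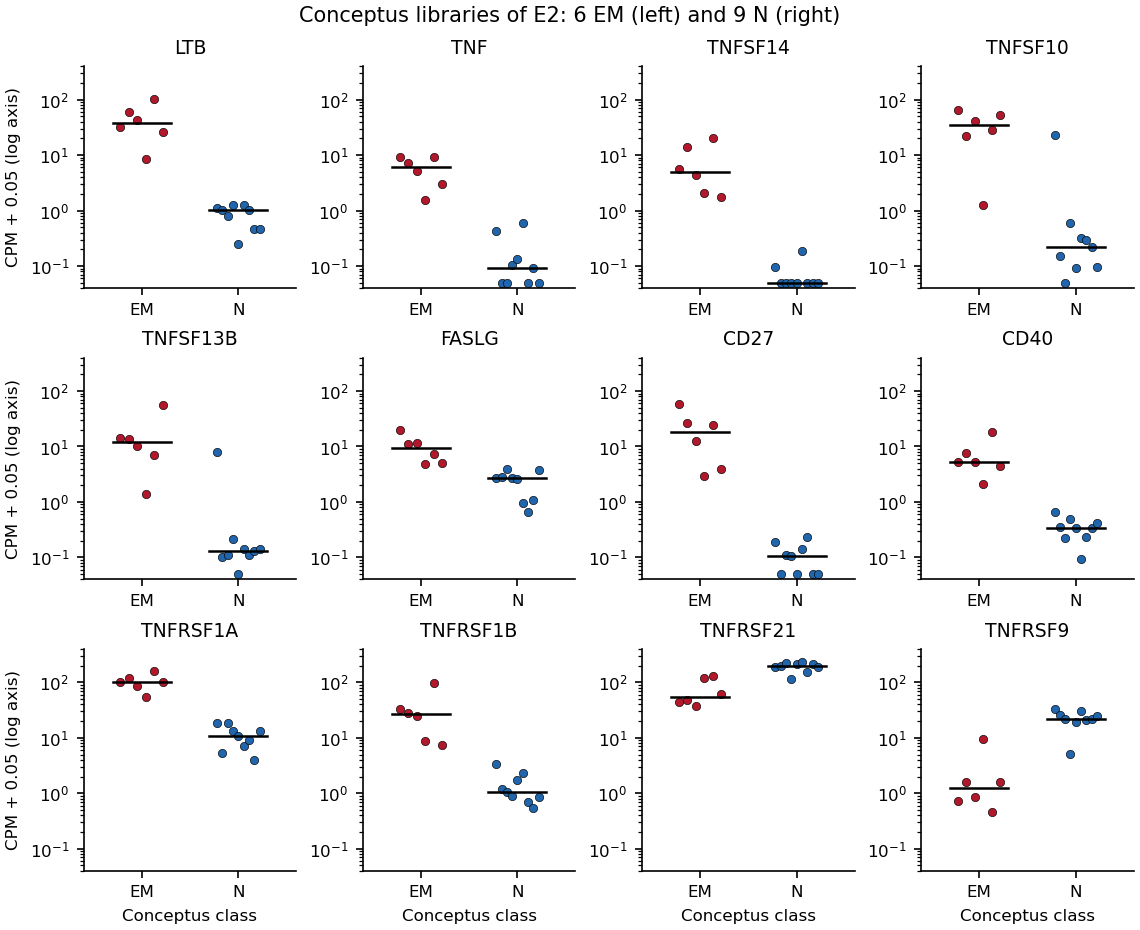
CPM plus 0.05 of 12 members in each conceptus library of E2, on a log axis on which points at 0.05 are libraries at 0, with EM libraries (n = 6) left of N libraries (n = 9) and bars at the medians. LTB, TNF, CD27, TNFRSF1A and TNFRSF1B separate the groups, whereas TNFRSF9 and TNFRSF21 are lower in EM.

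CD27, TNFRSF13C and TNFRSF4 had the largest log2 fold changes among the receptors. CD27, a costimulatory receptor of T cells and memory B cells, had 2.94, 18.4 and 58.02 CPM in EM conceptuses, against 0, 0.0552 and 0.180 CPM in N conceptuses. The groups did not overlap, and its log2 fold change of 8.03 ± 0.83 was the largest of all members tested (edgeR adjusted p = 2.56e-06). TNFRSF13C had 2.63, 4.13 and 14.5 CPM in EM conceptuses, against 0, 0.0415 and 0.110 CPM in N conceptuses (6.73 ± 0.67, adjusted p = 2e-06). TNFRSF4 (OX40), a receptor of activated T cells, had 2.66, 22.7 and 84.3 CPM in EM conceptuses, against 0.0456, 0.240 and 1.11 CPM in N conceptuses (6.46 ± 0.86, adjusted p = 1.44e-05, and 7.10 without N S50). Both were without overlap. TNFRSF18 (GITR), found on regulatory T cells, had 2.88, 27.4 and 67.8 CPM in EM conceptuses, against 0.0456, 0.3004 and 1.71 CPM in N conceptuses (5.36 ± 0.79, adjusted p = 3.49e-05, and 6.06 without N S56). CD40, by which B cells and macrophages receive T cell help, had 2.09, 5.11 and 18.3 CPM in EM conceptuses, against 0.0449, 0.290 and 0.603 CPM in N conceptuses (4.15 ± 0.49, adjusted p = 5.77e-06). These 2 did not overlap either.

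The order of the EM libraries was not the same for all of these receptors. S49, S51 and S53 had 34.6, 84.3 and 81.7 CPM of TNFRSF4, whereas S55, S58 and S61 had 2.66, 4.16 and 10.9 CPM. For CD40 and TNFRSF1B, S58 stood far above the rest, at 18.3 and 98.1 CPM. S58 also had the highest sums of B cell genes (454 CPM) and of monocyte and macrophage genes (584 CPM).

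Both receptors of TNF rose. TNFRSF1A, the widely expressed death domain receptor of TNF, had 54.7, 101.4 and 161 CPM in EM conceptuses, against 3.90, 10.8 and 18.3 CPM in N conceptuses. Every EM library lay above every N library, and the log2 fold change was 2.82 ± 0.33 (edgeR adjusted p = 6.37e-06). TNFRSF1B had 7.37, 26.5 and 98.1 CPM in EM conceptuses, against 0.498, 0.993 and 3.30 CPM in N conceptuses, again without overlap (4.20 ± 0.55, adjusted p = 1.28e-05). FAS, the receptor of FASLG, had 11.01, 25.2 and 50.2 CPM in EM conceptuses, against 3.79, 7.34 and 13.04 CPM in N conceptuses (1.47 ± 0.29, adjusted p = 0.000414). Its groups overlapped through EM S55, the lowest EM library.

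TNFRSF19, TNFRSF10D, TNFRSF6B, TNFRSF12A, TNFRSF13B and TNFRSF25 were called higher as well. TNFRSF19 had 20.1, 33.7 and 52.01 CPM in EM conceptuses, against 0.273, 0.584 and 7.71 CPM in N conceptuses (log2 fold change 4.27 ± 0.67, edgeR adjusted p = 5.32e-05). The groups were separate, and N S50 was the highest N library, without which the fold change was 5.50. TNFRSF10D had 3.89, 41.3 and 189.9 CPM in EM conceptuses, against 1.30, 3.11 and 7.04 CPM in N conceptuses, with EM S55 inside the N range (4.04 ± 0.58, adjusted p = 2.55e-05). TNFRSF6B, the soluble decoy DcR3 in humans, had 0.380, 5.22 and 17.6 CPM in EM conceptuses, against 0.361, 0.622 and 1.16 CPM in N conceptuses (2.79 ± 0.55, adjusted p = 0.000385). TNFRSF12A had 19.5, 66.5 and 126.3 CPM in EM conceptuses, against 17.6, 22.4 and 34.2 CPM in N conceptuses (1.24 ± 0.35, adjusted p = 0.00563). The last 2 overlapped between groups. TNFRSF13B (TACI), a receptor of BAFF and APRIL, had 0.749, 0.973 and 3.80 CPM in EM conceptuses, against 0, 0.137 and 0.279 CPM in N conceptuses, without overlap (2.90 ± 0.50, adjusted p = 0.000114). TNFRSF25 (DR3), a death domain receptor of T cells, had 0.475, 3.11 and 4.78 CPM in EM conceptuses, against 0.0601, 0.186 and 0.662 CPM in N conceptuses (2.98 ± 0.59, adjusted p = 0.000357).

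The 2 members that fell in EM conceptuses were both receptors. TNFRSF9 had 0.411, 1.19 and 9.49 CPM in EM conceptuses, against 5.08, 22.1 and 33.4 CPM in N conceptuses. The groups overlapped through EM S55, the highest EM library, and N S56, the lowest N library (log2 fold change -3.61 ± 0.66, edgeR adjusted p = 0.000193, and -4.90 without EM S55). TNFRSF21 had 37.7, 54.5 and 130.1 CPM in EM conceptuses, against 115.4, 198 and 229.7 CPM in N conceptuses. EM S55 (119.8 CPM) and S58 (130.1 CPM) lay above the lowest N library, S56 (-1.79 ± 0.28, adjusted p = 5.97e-05). The ligand TNFSF9 and its receptor TNFRSF9 thus differed in opposite directions between EM and N conceptuses of E2. In E1 TNFRSF9 was tested and not called.

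Of the 37 members, 12 failed the filter in E2 conceptuses: CD40LG, CD70, LTA, TNFRSF11A, TNFRSF11B, TNFRSF17, TNFRSF8, TNFSF11, TNFSF15, TNFSF18, TNFSF4 and TNFSF8. CD40LG, the T cell ligand of CD40, was at 0 in all 9 N libraries and in 3 of 6 EM libraries, with a highest value of 0.894 CPM. TNFSF8 (CD30 ligand) had 0.461, 3.75 and 16.8 CPM in EM conceptuses, against 0, 0.0552 and 0.224 CPM in N conceptuses, and LTA had 0, 0.437 and 2.26 CPM in EM and was at 0 in 8 of 9 N conceptuses. TNFRSF11B was near 0 in both groups, at 0 in 5 of 6 EM and 4 of 9 N libraries.

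Markers of other cell types moved with these members. Called higher in EM conceptuses of E2 were 6 of 6 T cell genes, 4 of 5 B cell genes, 3 of the 3 natural killer cell genes tested, 5 of 6 monocyte and macrophage genes, 5 of 6 genes of endometrial epithelium and 4 of 5 stromal genes, whereas 6 of 7 trophectoderm genes were lower and 1 was higher. Red cell genes were called higher in 2 of 3 cases, and of 3 endothelial genes tested 2 were higher and 1 lower. Of 4 luteal genes tested 1 was higher. T cell genes summed to 36.6 to 202 CPM in EM conceptuses and 0.249 to 8.91 CPM in N conceptuses, and B cell genes to 66.9 to 454 CPM in EM conceptuses and 3.83 to 21.6 CPM in N conceptuses. Genes of endometrial epithelium summed to 4659 to 9294 CPM in EM conceptuses and 22.6 to 1389 CPM in N conceptuses, and in EM endometrium itself to 348 to 1819 CPM. The part of these cell types in the members' differences was not tested, and in bulk libraries more cells of a type cannot be told apart from more RNA per cell.

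S55 was the EM conceptus nearest to N in several of these measures. It had the highest trophectoderm sum of the EM libraries and the lowest sum of T cell genes (36.6 CPM). It was also the lowest EM library for LTB (8.36 CPM), TNF (1.52 CPM), CD27 (2.94 CPM) and TNFRSF1A (54.7 CPM), each still above every N library. Leaving out 1 library at a time, 24 to 26 members were called, and the shares of all genes called in those fits are not given.

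Conceptus E1 gave the same comparison in other libraries, at lower depth in EM. There 12 of 37 rows passed the filter, and 6 were called higher and 1 lower in EM, against 47.1% of all genes called (25.4% higher, 21.7% lower). All 12 genes had the sign they had in E2. The 7 called, FAS, LTB, TNFRSF1A, TNFRSF1B, TNFRSF21, TNFSF13 and TNFSF9, were called in the same direction in E2. They are 7 of 7 calls of E1 and 7 of 25 calls of E2. The other 5 tested in E1, FASLG, TNFRSF12A, TNFRSF6B, TNFRSF9 and TNFSF12, were not called there.

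LTB in E1 had 61.7, 55.4, 31.2 and 9.36 CPM in the EM conceptuses S2, S3, S4 and S5, against 0.231, 0.679 and 1.32 CPM (lowest, median and highest) in the 8 N conceptuses. All EM libraries lay above all N libraries, although the value in S5 is 1 count (log2 fold change 6.33 ± 0.31, edgeR adjusted p = 1.98e-10). TNFRSF1A had 42.1, 59.7, 66.95 and 56.2 CPM in S2 to S5, against 6.93, 10.8 and 40.04 CPM in N conceptuses. These did not overlap either, although N S6 came close (2.14 ± 0.41, adjusted p = 0.000653). TNFRSF1B had 18.8, 29.05 and 13.4 CPM in S2, S3 and S4 and 0 in S5, against 0.231, 0.522 and 1.93 CPM in N conceptuses (5.10 ± 0.45, adjusted p = 1.27e-07, and 4.37 without EM S3). The 0 in S5 lies within the floor of that library.

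FAS in E1 had 20.9, 22.2, 13.4 and 9.36 CPM in S2 to S5, against 9.12, 12.1 and 15.4 CPM in N conceptuses, which overlapped (0.91 ± 0.24, edgeR adjusted p = 0.00535). The S5 value is again 1 count. TNFRSF21 had 133, 48.7, 196 and 56.2 CPM in S2 to S5, against 144, 176 and 241 CPM in N conceptuses (-0.63 ± 0.25, adjusted p = 0.0476). Its call was lost with RLE factors (adjusted p = 0.0831) and with DESeq2 (adjusted p = 0.0803). With RLE factors the median of all genes moved up by 0.11. TNFSF13 (1.81 ± 0.45, adjusted p = 0.0038) and TNFSF9 (1.79 ± 0.44, adjusted p = 0.00393) were called, although TNFSF13 was at 0 in S5 and TNFSF9 at 0 in S4 and S5. Without EM S3, 4 members were called and TNFSF13, TNFSF9, FAS and TNFRSF21 were not among them. The share of all genes called without EM S3 is not given.

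CD27, TNF, TNFRSF4 and CD40 failed the filter in E1, where S4 and S5 are shallow. CD27 had 11.5, 8.75, 0 and 9.36 CPM in S2 to S5, with 1 count in S5, and was at 0 in all 8 N conceptuses. TNF had 7.58 and 8.43 CPM in S2 and S3 and 0 in S4 and S5, against 0 to 0.371 CPM in N conceptuses. A fit without S4 and S5 left S2 and S3 as the only EM libraries. In it 20 of 24 members tested were called, beside 56.4% of all genes. Among them were CD27, TNF (log2 fold change 6.96), TNFRSF4 (6.53) and CD40 (4.98). Members high only in EM pass the filter there through S2 and S3, so the count does not stand for all members. In E1 with all libraries, 5 of 5 stromal genes, 4 of 5 monocyte and macrophage genes tested, 4 of 5 genes of endometrial epithelium and both red cell rows tested were called higher in EM conceptuses, and 5 of 7 trophectoderm genes were lower. The 1 B cell gene tested and the 2 luteal genes tested were not called. T cell genes summed to 65.6 to 131 CPM in EM libraries and 0.124 to 0.644 CPM in N libraries, and endometrial epithelium genes to 702 to 3751 CPM in EM libraries and 23.9 to 165 CPM in N libraries. B cell genes summed to 175.6, 60.9, 13.4 and 9.36 CPM in S2 to S5. In N libraries the B cell sums ran from 9.46 CPM in S9 to 30.01 CPM in S12. S4 and S5 thus did not exceed the N libraries in this sum, and both values lie within the floors of these shallow libraries.

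The signalling genes below the receptors moved in both directions in the conceptus. Of 32 listed genes of TNF receptor signalling, 17 were called higher and 5 lower in EM conceptuses of E2, beside 67.1% of all genes called, so the list's share lay near that of all genes. Their median log2 fold change was 0.80, beside 0.07 over all genes. TRAF5, an adaptor of CD40 and CD27 among others, differed by 5.47 ± 0.62 (SE) and CASP8, the initiator caspase of death receptors, by 5.20 ± 0.51. RELB and NFKB2, the transcription factor pair of the non-canonical pathway, differed by 3.21 ± 0.30 and 1.61, and MAP3K14, the kinase that starts it, by 2.87. The feedback inhibitors NFKBIA (3.56), TNFAIP3 (4.08) and CYLD (2.38) rose as well, as did the antiapoptotic CFLAR (2.55) and BIRC3 (2.25). The 5 lower genes were FADD (-0.79), IKBKG (-0.76), TRADD (-0.74), NFKBIB (-0.67) and TRAF2 (-0.50), among them the death domain adaptors FADD and TRADD. In E1, 15 of the 28 genes tested were higher and 3 lower, beside 47.1% of all genes called, with CASP8 at 5.66, TRAF5 at 4.63, RELB at 3.19, FADD at -0.89, TRADD at -0.66 and NFKBIB at -0.55.

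Of 6 relatives whose names fall outside the rule, 4 were tested in E2 conceptuses. EDA, the ectodysplasin ligand (2.87), and LTBR, the lymphotoxin receptor (1.10), were higher in EM, and NGFR, the neurotrophin receptor (-2.31), was lower. In E1 LTBR (0.67) was higher and NGFR (-2.74) lower among 3 tested.

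In endometrium the comparison of N with NP asks what pregnancy changes in the lining of the uterus. In E2, 31 members were tested and 2 were called, TNFSF13B and TNFSF10, both higher in N. Of all genes 1.41% were called in this comparison, 1.38% higher and 0.0263% lower. With edgeR 8 of 31 members had an unadjusted p under 0.05, as did 1786 of all 19038 genes. TNFSF13B had 1.65, 5.93 and 16.99 CPM (lowest, median and highest) in EM endometria and 1.31, 11.5 and 29.9 CPM in N endometria, against 0.842, 1.53 and 3.08 CPM in NP endometria. Of the N libraries only S81 lay inside the NP range (log2 fold change of N minus NP 3.01 ± 0.57, edgeR adjusted p = 0.00605). TNFSF10 had 56.3, 156 and 299 CPM in EM endometria and 47.98, 248 and 450.0 CPM in N endometria, against 51.1, 84.2 and 138 CPM in NP endometria. N and NP overlapped through N S81 and N S72 (1.58 ± 0.37, adjusted p = 0.0287), and its call was lost in 10 of 22 fits without 1 library (adjusted p up to 0.0756).

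**Figure D4:**
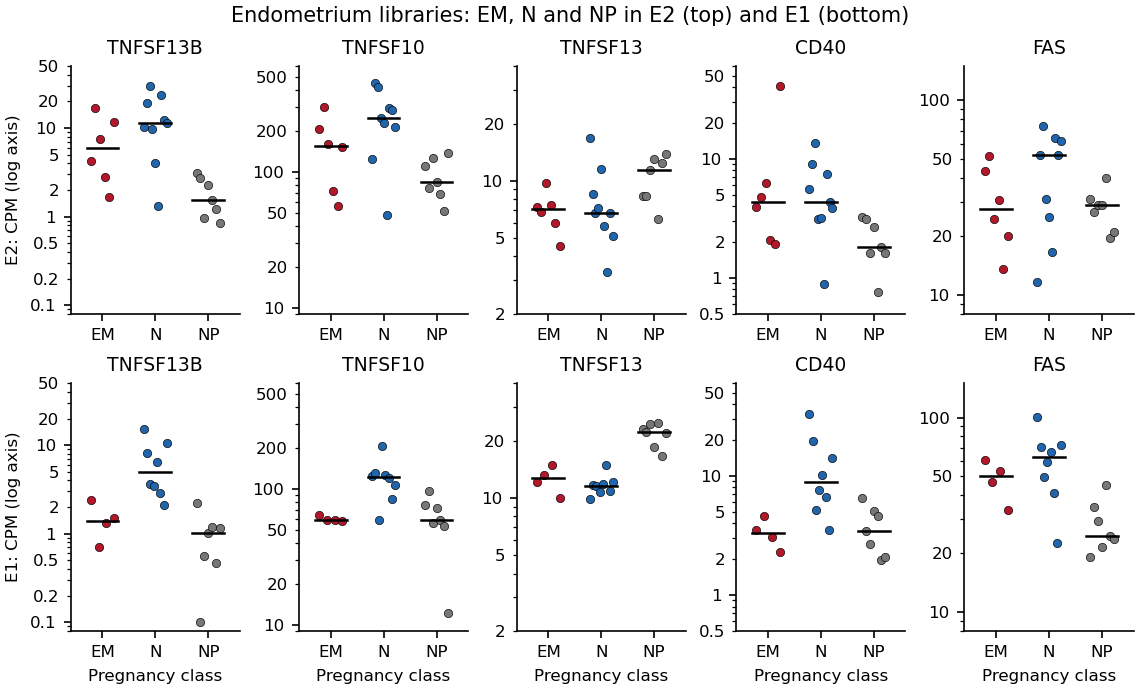
CPM of TNFSF13B, TNFSF10, TNFSF13, CD40 and FAS in each endometrium library of E2 (top) and E1 (bottom), on log axes, with EM left of N and NP at the right, and bars at the medians. TNFSF13B and TNFSF10 are higher in most N than in NP libraries in both experiments, and TNFSF13 is lower in N than in NP in E1.

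E1 gave 5 calls among 29 rows tested, 4 higher and 1 lower in N than in NP, against 2.52% of all genes called (2.14% higher, 0.383% lower). With edgeR 9 of 29 rows had an unadjusted p under 0.05, as did 2295 of all 14084 genes. TNFSF13B, on its row ENSBTAG00000011563, had 2.08, 5.03 and 15.3 CPM in N endometria, against 0.101, 1.01 and 2.22 CPM in NP endometria. Only N S23 lay inside the NP range (log2 fold change 2.76 ± 0.55, edgeR adjusted p = 0.00679). TNFSF10 had 59.02, 121.6 and 207 CPM in N endometria, against 12.3, 59.2 and 97.04 CPM in NP endometria, with overlap (1.03 ± 0.25, adjusted p = 0.0333). TNFSF13B and TNFSF10 were called in both experiments, which is 2 of 2 calls of E2 and 2 of 5 calls of E1. Of 26 genes tested in both, 21 had the same sign.

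The other 3 calls of E1 were FAS, CD40 and TNFSF13. FAS had 22.7, 62.96 and 100.3 CPM in N endometria, against 19.1, 24.6 and 45.2 CPM in NP endometria (1.12 ± 0.26, edgeR adjusted p = 0.0216). CD40 had 3.51, 8.86 and 33.1 CPM in N endometria, against 1.98, 3.45 and 6.55 CPM in NP endometria (1.78 ± 0.43, adjusted p = 0.0293). Both overlapped, and both were uncalled in E2, where FAS differed by 0.73 (adjusted p = 0.452) and CD40 by 1.53 (adjusted p = 0.394). CD40 was called in E2 in a joint fit of 3 tissues (1.49, adjusted p = 0.0176). TNFSF13 ran the other way, with 9.85, 11.6 and 14.9 CPM in N endometria, against 16.7, 22.2 and 24.8 CPM in NP endometria. Every N library lay below every NP library (-0.90 ± 0.13, adjusted p = 0.000438). In E2, TNFSF13 had 3.31, 6.80 and 16.8 CPM in N endometria and 6.33, 11.4 and 13.8 CPM in NP endometria, which overlapped and was not called.

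Calls of E1 rested on single libraries in part. FAS lost its call without NP S25, S28 or S30 (adjusted p up to 0.0567), CD40 without any of N S13, S18 and S24 and NP S26, S27, S29 and S30 (adjusted p up to 0.0698), and TNFSF10 without any of N S13, S18, S20, S21 and S24 and NP S27, S29 and S30 (adjusted p up to 0.0744). TNFSF13 and TNFSF13B kept theirs in every such fit. Without N S23, 8 rows were called, with LTB, FASLG and the other TNFSF13B row added. The share of all genes called in that fit is not given.

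Interferon-stimulated genes moved with the same groups. In the uterus of cattle they respond to interferon tau, the signal by which the conceptus announces itself. All 11 found were called higher in N than in NP endometria in both experiments. Their summed level in E2 was 99.3 to 11596 CPM in EM, 965 to 14922 CPM in N and 94.7 to 253 CPM in NP endometria. In E1 it was 160.3 to 7548 CPM in EM, 4801 to 21922 CPM in N and 185 to 523 CPM in NP endometria. In EM against NP, 11 of 11 were called higher in E2 and 0 of 11 in E1.

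Within EM endometria of E2 this sum divided the libraries, and TNFSF13B followed the same order in part. S77 and S80 had 182 and 99.3 CPM of interferon-stimulated genes and 2.84 and 1.65 CPM of TNFSF13B. S71, S75, S73 and S83 had 3433, 4989, 10928 and 11596 CPM of these genes and 4.23, 7.63, 16.99 and 11.7 CPM of TNFSF13B. The N library with the lowest TNFSF13B, S81, also had the lowest sum of interferon-stimulated genes among N. In E1, EM S14 had 7548 CPM of these genes and 2.40 CPM of TNFSF13B, and S15, S16 and S17 had 430.5, 160.3 and 384 CPM and 0.713, 1.31 and 1.504 CPM. The part of interferon-stimulated genes in the differences of TNFSF13B was not tested.

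**Figure D5:**
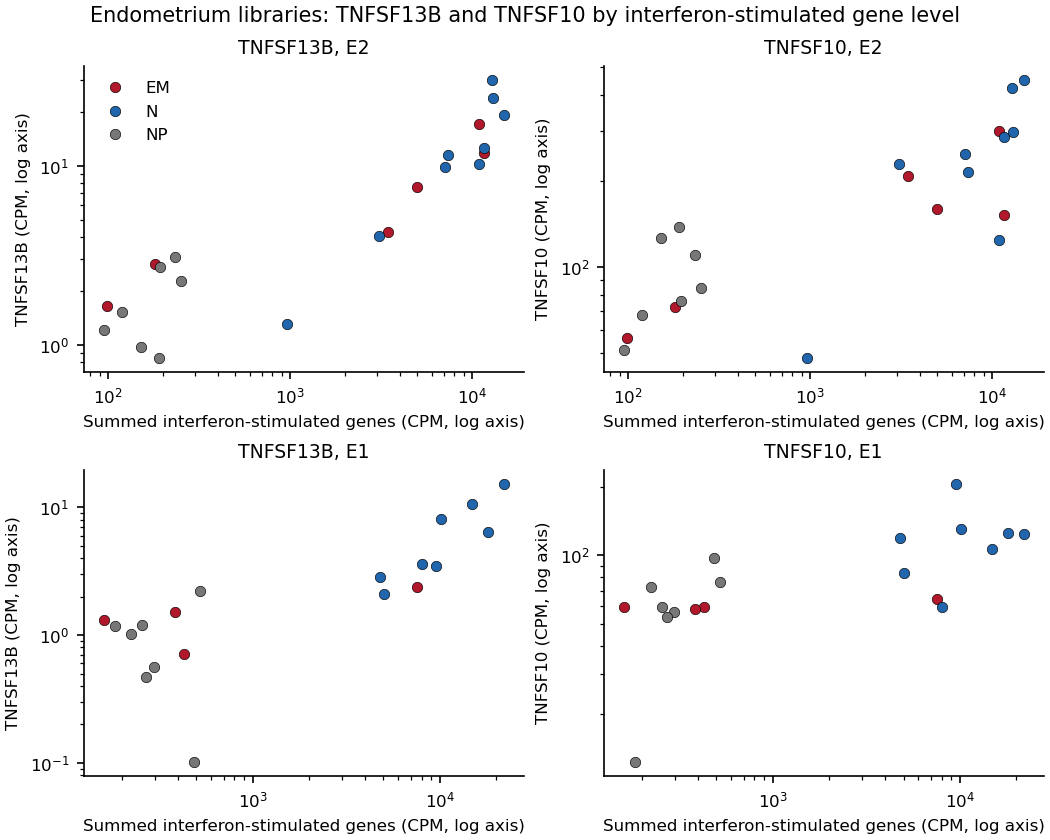
Summed CPM of 11 interferon-stimulated genes (x, log axis) against the CPM of TNFSF13B (left) or TNFSF10 (right) (y, log axis), with each point an endometrium library of E2 (top) or E1 (bottom) and the colour its group (EM, N or NP). NP libraries sit at the lower left at up to 523 CPM of interferon-stimulated genes, most N libraries at the upper right, and EM libraries in both places.

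Between EM and N endometria no member of 31 was called in E2 with edgeR or with DESeq2 (0% of all genes called with edgeR). With edgeR 5 members had an unadjusted p under 0.05, as did 1516 of all 19038 genes. In 1 EM endometrium, S83, B cell genes summed to 1980.2 CPM, against 4.25 to 42.8 CPM in the other EM libraries and 4.34 to 44.01 CPM in N libraries. TNFRSF13C in that library was at 58.5 CPM, against a median of 1.43 CPM over the 6 EM and 0.352 CPM over the 9 N endometria (log2 fold change 4.01, edgeR adjusted p = 0.253). CD40 (41.3 CPM) and LTB (80.5 CPM) were also highest there, against EM medians of 4.35 and 11.7 CPM and N medians of 4.33 and 9.54 CPM. The B cell genes' part in these values was not tested.

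In E1, 1 row of 29 was called between EM and N endometria, the second TNFSF13B row (ENSBTAG00000045907), which was lower in EM. Of all genes 1.38% were called, 0.263% higher and 1.12% lower. With edgeR 13 of 29 rows had an unadjusted p under 0.05, as did 1898 of all 14084 genes. The median log2 fold change was -0.60 over the 29 rows and 0.01 over all genes. The called row had 0, 0.119, 0.109 and 0.116 CPM in EM S14, S15, S16 and S17, against 0.190, 1.30 and 3.36 CPM in N endometria (-4.02 ± 0.91, edgeR adjusted p = 0.0334). The ranges did not overlap, but all EM values and the lowest N value lay below the level of 3 counts. That level was 0.242 CPM or more in these libraries. EM held 3 counts of this row in all, and the ratio of the EM rate over the N rate was 0.0594 (95% exact interval 0.0121 to 0.178, which covers counting error only). The call was lost without any 1 of the 4 EM libraries or N S13, S21 or S24 (adjusted p up to 0.158). The other TNFSF13B row had 2.40, 0.713, 1.31 and 1.504 CPM in EM S14 to S17 and a median of 5.03 CPM in N (-2.22 ± 0.66, adjusted p = 0.109).

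CD40, CD40LG and LTB had the next lowest adjusted p here, without a call. CD40 had 3.54, 4.63, 3.05 and 2.31 CPM in EM S14 to S17 and a median of 8.86 CPM in N (-1.97, edgeR adjusted p = 0.0799). LTB had 5.32 to 11.1 CPM in EM endometria and 5.02 to 49.5 CPM in N endometria (-1.62, adjusted p = 0.0956), and CD40LG had 0 to 0.594 CPM in EM endometria and 0.401 to 3.26 CPM in N endometria (-2.54, adjusted p = 0.0893). DESeq2 called 7 rows here, all lower in EM, and its share of all genes is not given. T cell genes summed to 36.7 to 49.2 CPM in EM and 23.03 to 173 CPM in N endometria of E1, and none of 6 was called. The 26 genes tested in both experiments had the same sign for EM minus N in 11 cases.

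Between EM and NP endometria edgeR called no member in either experiment, against 0.247% of all genes in E2 and 0.0426% in E1 (0.0355% higher, 0.0071% lower). In E2, 10 of 31 members had an unadjusted p under 0.05 with edgeR, as did 1778 of all 19038 genes. DESeq2 called 3 members, TNFSF13B, CD40 and TNFRSF21, and its share of all genes is not given. TNFSF13B differed by 2.17 ± 0.58 (edgeR adjusted p = 0.118), and was called without EM S80 (2.38, adjusted p = 0.0467). In E1, 5 of 29 rows had an unadjusted p under 0.05 with edgeR, as did 1295 of all 14084 genes, and DESeq2 called 1 row. That was TNFSF13, at 12.1, 13.2, 14.9 and 9.95 CPM in EM S14 to S17 and 16.7, 22.2 and 24.8 CPM in NP, without overlap (-0.86 ± 0.16, edgeR adjusted p = 0.0814). In E1, TNFSF13 was thus below all NP endometria in every EM and every N endometrium, and both comparisons share these NP libraries.

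The corpus luteum showed no called member. Of 28 tested, edgeR called 0 in EM against N, EM against NP and N against NP, with 3, 2 and 1 at an unadjusted p under 0.05, and DESeq2 called 0 in each. Over all 17597 genes 1201, 784 and 390 had such an unadjusted p with edgeR, in the same order. Of all genes 0.00568% were called in EM against N and 0% in the other 2. TNFSF9 had 1.12, 1.68 and 2.19 CPM in N corpora lutea, against 1.86, 2.75 and 4.78 CPM in NP corpora lutea, with overlap (log2 fold change -0.80). TNFRSF1A had medians of 156 CPM in EM, 163 CPM in N and 167 CPM in NP. FAS, through which luteal cells can be killed, had 6.10, 7.06 and 20.8 CPM in EM corpora lutea, 2.78, 7.47 and 8.74 CPM in N corpora lutea and 3.95, 5.93 and 10.2 CPM in NP corpora lutea, which overlapped. The highest value was that of EM S121, and without that library no member was called either.

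PBMC showed none either, although more members were called highest there than in any other tissue. In E2, edgeR called 0 of 28 in each comparison (0% of all genes), with 0, 0 and 3 at an unadjusted p under 0.05 in EM against N, EM against NP and N against NP, and DESeq2 called 0. Over all 16269 genes 342, 278 and 740 had such an unadjusted p with edgeR. LTB had 122.4, 206 and 261 CPM in EM libraries, 107.8, 193 and 295 CPM in N libraries and 211, 254 and 302 CPM in NP libraries, all overlapping. In E1, 0 of 26 rows were called with either tool (0% of all genes with edgeR), with 7, 1 and 1 at an unadjusted p under 0.05 with edgeR in the same order. Over all 11501 genes of E1, 758, 374 and 603 had such an unadjusted p. FASLG in E1 had 5.19, 12.9 and 4.73 CPM in the 3 EM libraries, against 1.10, 2.67 and 4.603 CPM in N libraries, without overlap (1.63 ± 0.49, edgeR adjusted p = 0.499). In E2 it had 4.23, 12.8 and 23.1 CPM in EM and 8.30, 15.02 and 36.2 CPM in N libraries, with the opposite sign (-0.28).

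Whether the response to pregnancy differed between tissues was tested as an interaction in E2, over 36 members. The N minus NP difference of TNFSF13B was larger in endometrium than in corpus luteum by 2.68 ± 0.68 (SE) on the log2 scale (edgeR adjusted p = 0.0322), the 1 call among members, against 0.834% of all genes. In this fit the N minus NP difference was 2.98 in endometrium, 0.30 ± 0.50 in corpus luteum and 0.86 ± 0.44 in PBMC. The same fit called 4 members between N and NP endometria, beside 2.52% of all genes: TNFSF13B, TNFSF10, CD40 and TNFSF18, the ligand of TNFRSF18 (1.90, adjusted p = 0.0139). TNFSF18 was not called in the fit of endometrium alone (1.94, adjusted p = 0.0876). TNFSF13B had 0.0623, 0.582 and 1.60 CPM in N corpora lutea, against 0.144, 0.641 and 0.962 CPM in NP corpora lutea. In PBMC it had 7.19, 16.9 and 28.3 CPM in N, against 4.69, 10.3 and 15.3 CPM in NP libraries. The call was lost without the NP corpus luteum S109 (2.55 ± 0.71, adjusted p = 0.0693), a setting chosen after seeing the data. Between endometrium and PBMC no member was called (4 of 36 at an unadjusted p under 0.05, 0.71% of all genes called), and TNFSF13B had a difference of 2.11 ± 0.63 (adjusted p = 0.143). Between corpus luteum and PBMC none was called either (1 at an unadjusted p under 0.05, 0% of all genes called), and the interaction was not fitted with DESeq2. For the interactions the number of all genes at an unadjusted p under 0.05 is not given.

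Outside the conceptus the signalling genes stayed near 0. Of the 32 listed genes, none was called in endometrium E2, corpus luteum or PBMC of either experiment with edgeR, and 1 was called in endometrium E1, CASP8, which was higher in N than in NP by 0.87 (adjusted p = 0.0159). Their median log2 fold change in the comparisons of endometrium, corpus luteum and PBMC lay between -0.13 and 0.16.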

How the data were processed

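The tables deposited by the authors hold raw counts per gene. Their methods state trimming and alignment to ARS-UCD1.2 for conceptus E2, and the labels give that build for E2 and UMD3.1 for E1, apart from PBMC. The counting program is not named in the paper or the labels. The deposited E1 tables also hold an exon length per gene, of the unit other, used for CPM per kilobase. RNA was total RNA with stranded mRNA libraries. In E2, 28 rows that repeated a gene name were dropped. Of 129 samples, 127 were in a group. The labels of 2 name more than 1 tissue, and 2 per-sample columns were left out. In endometrium E2 an EM and an N column are both named S77; S77 here is the EM library, and the other was used as an N library by its sheet. Library totals ranged from 106785 to 24482117 counts.

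Each tissue and experiment was fitted separately with edgeR 4.0.16 under R 4.3.3: filterByExpr at a minimum count of 10, TMM factors, the quasi-likelihood test and Benjamini-Hochberg adjustment at 0.05 over all genes. The standard error was the log2 fold change divided by the square root of F. DESeq2 1.42.0, the study's tool, RLE factors, no filter beyond 1 count, and leaving out each library were alternatives. Tables and figures used Python 3.11.15. The fitting functions were tested on simulated data.

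The members and gene lists were chosen with earlier results of these data known. Named were all members called, well-known members that a comparison turned on, and members of the lists. The labels do not state that libraries of E1 came from separate cows, so p-values there measure the spread between libraries. No sequence is printed because no genome or sequence table was used here.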

Additional observations from a re-analysis of the deposited data

Results flagged for a closer look

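In 25 of 133 groups of 4 to 10 libraries searched (18.8%), 1 library lay far from the others by Dixon's criterion. Normally distributed values would meet it in about 1 in 20. The values searched were CPM without a log scale, many near 0, so that rate need not hold here and no excess is read from the share. In N conceptuses of E2, S50 was far above the rest for TNFSF10 (22.6 CPM), TNFSF13B (7.84 CPM), TNFRSF19 (7.71 CPM) and TNFRSF4 (1.11 CPM). S56 was far below the rest for TNFRSF9 (5.08 CPM) and above it for TNFRSF18 (1.71 CPM). S52 stood out for TNFSF13 (2.82 CPM), and S59 for TNFSF14 (0.135 CPM) and TNFSF8 (0.224 CPM).

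In EM conceptuses of E2, S58 was far above the rest for TNFRSF1B (98.1 CPM), CD40 (18.3 CPM), TNFSF8 (16.8 CPM) and TNFRSF13B (3.80 CPM), S61 for TNFSF13B (55.7 CPM) and S55 for TNFRSF9 (9.49 CPM). In N conceptuses of E1, S6 stood above the rest for TNFRSF1A (40.04 CPM) and TNFRSF1B (1.93 CPM), and S10 for TNF (0.371 CPM).

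In endometrium E2, EM S83 was far above the other EM libraries for LTB (80.5 CPM), TNFRSF13C (58.5 CPM) and CD40 (41.3 CPM), and NP S65 above the other NP libraries for TNFRSF13C (3.95 CPM). In endometrium E1, N S13 stood out for TNFRSF1A (474 CPM), N S22 for TNFSF13 (14.9 CPM), and EM S14 was lowest for the second TNFSF13B row (0 CPM).

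The N minus NP difference of TNFSF13B differed between endometrium and corpus luteum by 2.68 on the log2 scale (edgeR adjusted p = 0.0322).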

How the results depend on the processing

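No called fold change reversed under any alternative run. Without the filter 25 rows were called in conceptus E1, against 7 with it. The 25 include rows that fail the filter on low counts, and the share of all genes called in that run is not given. Without EM S4 and S5 together 20 were called, beside 56.4% of all genes, with S2 and S3 as the only EM libraries. DESeq2 called 3 members in EM against NP and 4 in N against NP of endometrium E2, and in endometrium E1 it called 7 in EM against N, 1 in EM against NP and 8 in N against NP. The shares of all genes called by DESeq2 are not given beside these counts. With RLE factors, and without a filter, 1 member was highest in conceptus, against 2. Without the corpus luteum NP S109 no member differed between endometrium and corpus luteum in the N minus NP difference.

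Leaving out 1 library at a time, 24 to 26 members were called in conceptus E2. In conceptus E1 the count was 4 to 11, with 4 without EM S3 and 11 without EM S4 or EM S5. In endometrium E2 it was 0 in EM against N throughout, 0 to 1 in EM against NP (1 without EM S80) and 1 to 4 in N against NP, with 1 without any of N S74, S82, S84 and the N library that carries the name S77 and NP S64 to S69, and 4 without N S81. In endometrium E1 it was 0 to 3 in EM against N (0 without any of the 4 EM libraries or N S13, S21 or S24, 2 without NP S31, 3 without N S23), 0 to 1 in EM against NP (1 without NP S30 or NP S31) and 2 to 8 in N against NP (2 without NP S30, 3 without N S13, S18 or S24 or NP S27 or S29, 8 without N S23). In corpus luteum and PBMC it was 0 in each. The shares of all genes called in these fits are not given, so a change in a count may follow a change over all genes.

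No paired analysis was possible because the groups share no replicate numbers. Of the fold changes of called members, 571 kept their call and 52 lost it when 1 or more libraries were left out. Depth limits the EM conceptuses of E1, where a gene at 0 in S4 or S5 is bounded only by 13.4 or 28.1 CPM.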
